A study of Homo sapiens with 30 samples.

Results

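The genes described here are 10 genes of the Hippo pathway and its transcriptional output, chosen by name from the 38526 genes of the first deposited count table and the 36291 genes of the second. They are the kinases LATS1 and LATS2, the scaffold WWC1 (KIBRA), the angiomotin-like proteins AMOTL1 and AMOTL2, the coactivators YAP1 and WWTR1 (TAZ), and the target genes CCN1 (CYR61), CCN2 (CTGF) and ANKRD1. All 10 were found by Ensembl ID in both tables, and all 10 passed the filter on low counts in both. The cells were MDA-MB-231, a human triple-negative breast cancer line of mesenchymal character, carrying LeGO barcodes, which are marks inserted by lentiviral vectors. Human RNA was read from cells of subclone 2 and of subclone 13 that had been sorted from NOD-SCID-IL2Rγc-/- (NSG) mice, which lack mature T, B and NK cells. In the first experiment each subclone came from the primary tumour, the lung metastases and the liver metastases of mice 1, 2 and 3, which gives 6 groups of 3 samples (18 samples). A retransplantation experiment holds subclone 2 labelled lung metastasis and liver metastasis from 3 other mice, 4, 5 and 6 (2 groups of 3 samples). Whether that organ was the origin of the cells or the site of their later growth is not stated in the labels. No group carries an added drug or gene deletion in the labels, and the age of the animals is not given in the sources used here. Each subclone is 1 clone of 1 cell line, so a difference between the subclones is a difference between these 2 clones.

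In the Hippo pathway a kinase cascade ends in LATS1 and LATS2, which phosphorylate YAP and TAZ and so keep them out of the nucleus. Scaffolds such as WWC1, NF2 and the angiomotin family help to activate the kinases or hold YAP and TAZ at junctions. When the cascade is off, YAP and TAZ enter the nucleus, bind TEAD factors and raise targets that include CCN1, CCN2 and ANKRD1, and also AMOTL2 and LATS2, which feed back on the pathway. The pathway is known for its response to cell density, matrix stiffness and cell shape, and its activity is set largely by phosphorylation, which RNA counts do not measure.

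The promoters of the targets are shown because TEAD factors are known to bind the letters GGAATG. RefSeq promoter windows (GRCh38.p14) of the 250 bases before a transcript start were held for 9 of the 10 genes, in 12 windows; CCN1 was the exception. GGAATG or its reverse complement CATTCC, searched on both strands, was present in windows of 4 genes. CCN2 had 3 matches, 169, 104 and 95 bases before the start. ANKRD1 had 2, 220 and 128 bases before it, AMOTL2 had 1 at 69 bases and YAP1 had 1 at 162 bases. Among 35116 RefSeq windows of the same length 11.9% held at least 1 match, 0.940% at least 2 and 0.083% at least 3, so the CCN2 window was among 29 with that many. The windows of LATS1, LATS2, WWC1, AMOTL1 and WWTR1 had no match. A match is a run of letters, not a measured binding site. The windows are printed 5′ to 3′ on the strand of the gene with matches in capitals. WWC1, the gene with the largest change, is shown for comparison, and the AMOTL2 window belongs to a start inside the gene. The ANKRD1 window also lies partly inside the gene as annotated in GENCODE v29, and so does its match 128 bases before the RefSeq start.
CCN2, chr6:131951373-131951622, minus strand: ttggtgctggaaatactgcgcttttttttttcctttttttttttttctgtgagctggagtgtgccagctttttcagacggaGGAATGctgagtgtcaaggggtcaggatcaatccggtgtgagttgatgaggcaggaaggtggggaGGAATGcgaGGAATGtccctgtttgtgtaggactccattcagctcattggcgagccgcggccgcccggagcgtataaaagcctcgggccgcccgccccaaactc
ANKRD1, chr10:90921088-90921337, minus strand: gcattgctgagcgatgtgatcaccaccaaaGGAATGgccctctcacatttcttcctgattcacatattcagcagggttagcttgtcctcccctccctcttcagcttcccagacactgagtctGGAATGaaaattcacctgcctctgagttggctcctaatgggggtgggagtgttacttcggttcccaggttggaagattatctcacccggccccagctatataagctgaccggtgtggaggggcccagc
AMOTL2, chr3:134374448-134374697, minus strand: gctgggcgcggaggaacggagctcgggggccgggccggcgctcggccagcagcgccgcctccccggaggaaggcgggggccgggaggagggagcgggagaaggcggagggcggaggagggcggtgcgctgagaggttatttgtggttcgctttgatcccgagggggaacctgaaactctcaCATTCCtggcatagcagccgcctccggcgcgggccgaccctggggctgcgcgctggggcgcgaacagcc
WWC1, chr5:168291395-168291644, plus strand: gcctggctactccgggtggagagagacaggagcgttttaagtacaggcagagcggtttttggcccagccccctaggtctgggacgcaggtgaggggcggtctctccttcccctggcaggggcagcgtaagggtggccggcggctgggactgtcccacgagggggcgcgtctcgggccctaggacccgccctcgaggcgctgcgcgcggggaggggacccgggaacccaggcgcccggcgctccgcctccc

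On GRCh38, as annotated in GENCODE v29, WWC1 (ENSG00000113645) lies at chr5:168291651-168472303 on the plus strand, LATS2 (ENSG00000150457) at chr13:20973032-21061547 on the minus strand and LATS1 at chr6:149658153-149718256 on the minus strand. AMOTL1 (ENSG00000166025) lies at chr11:94706431-94876753 and YAP1 at chr11:102110461-102233423, both on the plus strand, and AMOTL2 at chr3:134355874-134375479 and WWTR1 at chr3:149517235-149736714, both on the minus strand. CCN1 lies at chr1:85580761-85583962 on the plus strand, CCN2 at chr6:131948176-131951373 and ANKRD1 (ENSG00000148677) at chr10:90912096-90921276 on the minus strand. All 10 are protein-coding genes.

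Total counts per sample ran from 11.8 to 82.2 M among the 18 samples of the first experiment, and from 23.4 to 32.3 M among the 6 retransplantation samples. Levels are given as CPM, a gene's counts relative to the TMM-scaled total of its sample. Of the MDA-MB-231 markers VIM was at 2474 to 9742 CPM, CD44 at 183 to 921 and EGFR at 126 to 270.4 over the 18 samples of the first experiment, while SPARC ranged from 8.62 to 673 CPM. CDH1, ESR1 and PGR stayed at or below 4.83 CPM, although KRT19, a keratin listed with them, was at 503 to 2277 CPM. In those 18 samples the hepatocyte gene ALB (0.806 CPM at most) and the alveolar gene SFTPC (0.197) were near 0. The leukocyte gene PTPRC (0.889) and the fibroblast gene DCN (0.392) were near 0 there too. Other genes of the same lists were present: SERPINA1 of the hepatocyte list at 24.9 to 212 CPM and APOA1 up to 23.8, COL1A1 and PDGFRB of the fibroblast list at 7.76 to 111 and 5.24 to 36.8 CPM, and CD14 of the leukocyte list up to 13.95 CPM. AGER of the alveolar list was at 1.77 to 8.28 CPM. In the 6 retransplantation samples ALB, SFTPC, PTPRC and DCN reached 0.170, 3.49, 2.99 and 0.274 CPM. There SERPINA1 reached 75.2 CPM, CD14 4.89, LYZ of the leukocyte list 8.32 and CDH5 of an endothelial list 4.29. The genes named from these lists were picked after their values were seen. As these are bulk samples of sorted cells, fewer cells of a type and less RNA per cell cannot be told apart. The 6 samples of mouse 1 had scores of 40.2 to 84.9 on the first principal component (32.2% of the variance) and the 12 of mice 2 and 3 had scores of -53.0 to 7.8. Mice 1, 2 and 3 were read in runs 1, 2 and 3, apart from subclone 13 of mouse 1, which was read in all 3. Across its 3 libraries an organ's level of each of the 10 genes differed by 1.01-fold to 1.31-fold, or 2.03-fold for WWC1 in liver. For the other samples mouse and run cannot be told apart. Mitochondrially encoded genes held 8.43 to 9.71% of counts in the 6 lung samples, 3.10 to 4.85% in the 6 liver samples and 2.84 to 3.95% in the 6 tumour samples. The part of this share in the lung differences of the 10 genes was not tested.

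**Figure D1:**
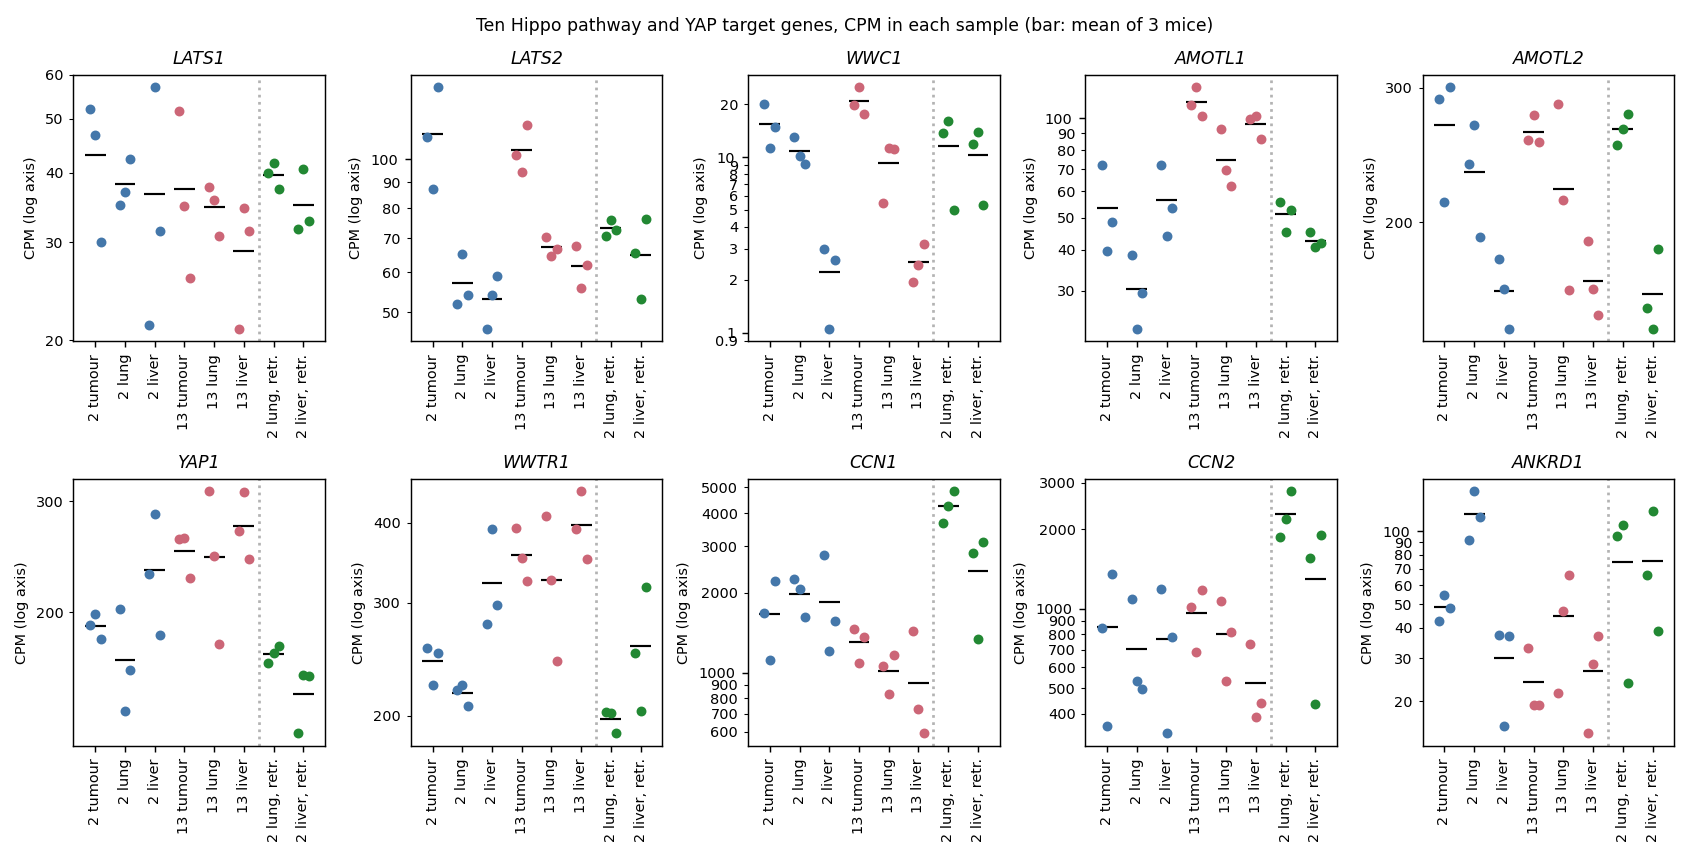
CPM (log axis) of the 10 genes in each of the 24 samples, in 8 groups named by subclone and organ (retr.: retransplantation); each point is 1 mouse and each bar the mean of 3. WWC1 was at 1.05 to 3.22 CPM in the 6 liver samples of the first experiment and at 5.48 CPM or more in its lung and tumour samples, and at 5.30 to 13.8 CPM in the retransplanted liver samples.

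Compared per length (CPM per kilobase of exon), the genes of the secreted matricellular proteins were highest, with mean levels over the 18 samples of 593 ± 235 CPM per kb (SD) for CCN1 and 329 ± 137 for CCN2. CCN1 was above CCN2 in 17 of 18 samples, and CCN2 was above the next gene in 18. WWTR1 (36.9 ± 9.05 CPM per kb), AMOTL2 (36.6 ± 8.85) and YAP1 (36.0 ± 8.03) did not differ beyond their spread: WWTR1 was above AMOTL2 in 10 samples and AMOTL2 above YAP1 in 9. ANKRD1 followed at 24.6 ± 18.1 CPM per kb and LATS2 at 13.6 ± 4.69, and these neighbours overlapped as well, with ANKRD1 the higher in 11 samples. AMOTL1 stood at 7.02 ± 3.001 and LATS1 at 4.22 ± 1.18 CPM per kb. WWC1 was the lowest at 1.01 ± 0.719 CPM per kb, below LATS1 in all 18 samples. WWC1 also varied most: its highest level was 24.01-fold its lowest, against 9.95-fold for ANKRD1, 5.43-fold for AMOTL1 and 2.08-fold for AMOTL2, the steadiest of the 10.

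WWC1 and LATS2 were the genes of the 10 called between an organ and the tumour without a mouse term, both at lower levels in metastases. Calls are adjusted p under 0.05 in edgeR's quasi-likelihood test, first without and then with mouse as a term, because samples with the same number come from the same mouse. In lung against tumour 1 of the 10 genes was called in subclone 2 (LATS2, lower), where 0.436% of 17418 genes were called, and 2 with the mouse term (LATS2 and AMOTL1, lower), where 3.05% were. In subclone 13 the counts were 0 (0.419% of all genes called) and 0 with the mouse term (2.89%), and DESeq2 also called 0. There 4 of the 10 genes had an unadjusted edgeR p under 0.05 without that term, beside 1352 of all 17418 genes. In liver against tumour 2 genes were called in subclone 2 (WWC1 and LATS2, both lower; 0.287% of all genes), and the same 2 with the mouse term (1.68%). In subclone 13 it was 1 (WWC1, lower; 0.385%), and 2 with the mouse term (WWC1 and LATS2; 1.83%).

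Lung against liver gave no call among the 10 genes without the mouse term in either subclone, where 0.0230% of all genes were called in subclone 2 and 0% in subclone 13. With the mouse term 3 were called in subclone 2 (WWC1 and ANKRD1 higher in lung, AMOTL1 lower; 2.95% of all genes) and 1 in subclone 13 (WWC1, higher in lung; 0.276%). DESeq2 without a mouse term called WWC1 and ANKRD1 in subclone 2 and WWC1 in subclone 13. Unadjusted p under 0.05 without the mouse term was reached by 5 of the 10 genes in subclone 2 and by 1 in subclone 13. Among all 17418 genes it was reached by 1619 and 792.

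**Figure D2:**
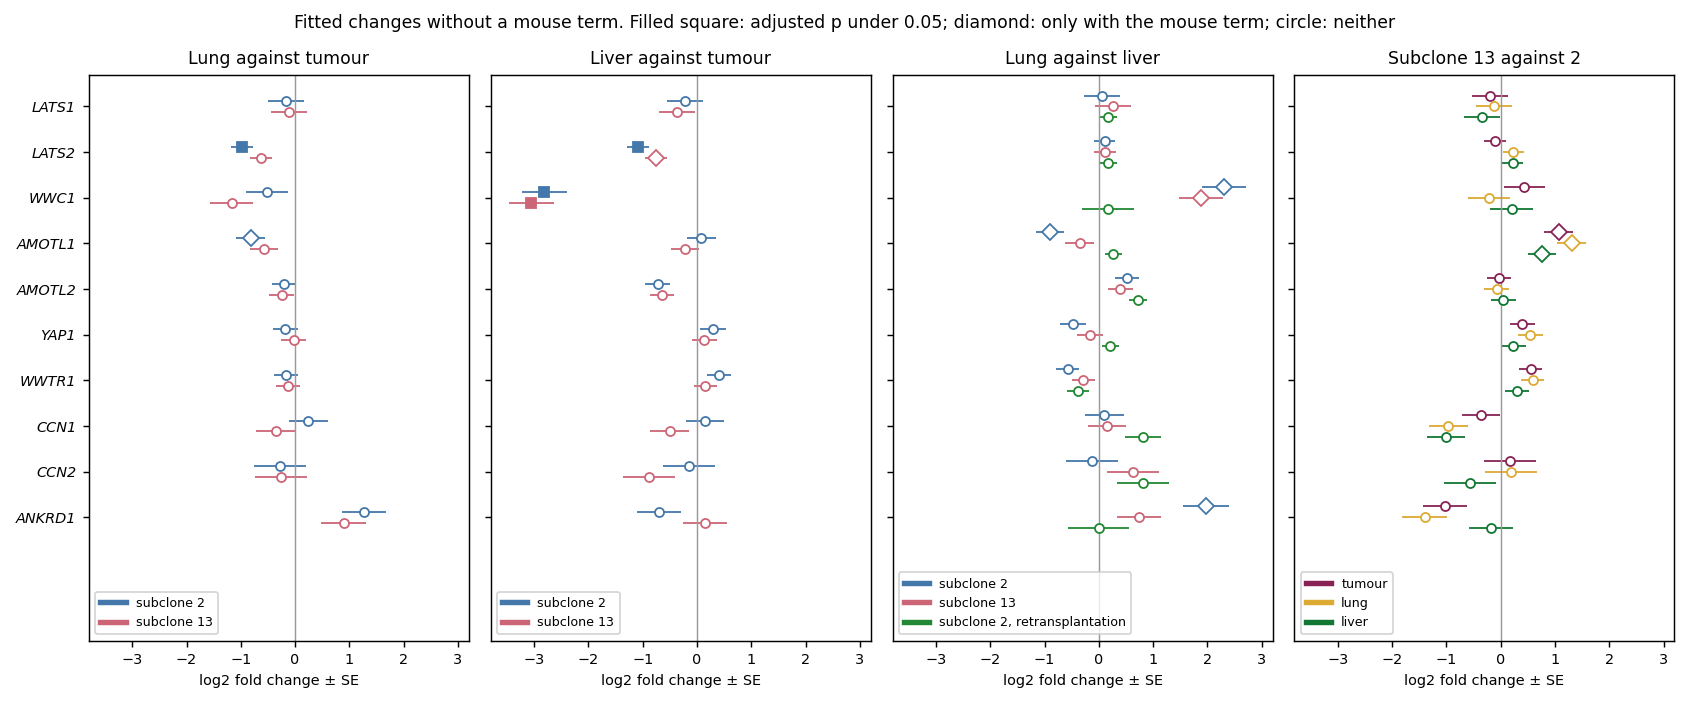
Fitted log2 fold change ± SE of the 10 genes without a mouse term in lung against tumour, liver against tumour, lung against liver and subclone 13 against 2; filled squares are called, diamonds are called only with the mouse term, circles in neither fit. The largest changes are those of WWC1 in liver against tumour, -2.82 in subclone 2 and -3.05 in subclone 13.

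WWC1, the scaffold that brings LATS kinases and their activators together, was lowest in liver metastases of both subclones. In subclone 2 its level was 20.1, 11.2 and 14.8 CPM in the tumours of mice 1, 2 and 3, 13.0, 10.2 and 9.09 CPM in their lung metastases and 3.01, 1.05 and 2.58 CPM in their liver metastases. In subclone 13 it was 19.8, 25.1 and 17.5 CPM in tumour, 5.48, 11.3 and 11.1 CPM in lung and 1.95, 2.42 and 3.22 CPM in liver. In each of the 6 pairs of mouse and subclone the order was tumour, lung, liver, and no liver sample overlapped a lung or tumour sample. The liver values rest on few reads, between 40 and 149 per sample, whereas those in tumour rest on 176 to 918.

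From tumour to liver WWC1 fell by 2.82 ± 0.42 on the log2 scale in subclone 2 (7.04-fold, edgeR adjusted p = 0.00477; 0.000528 with the mouse term) and by 3.05 ± 0.42 in subclone 13 (8.29-fold, adjusted p = 0.00213; 0.000237). The change per mouse was -2.31 to -2.92 in subclone 2 and -2.27 to -3.135 in subclone 13 on the log2(CPM + 0.5) scale, lower in 6 of 6 pairs. The 2 falls differed by -0.24 ± 0.56 (adjusted p = 1). In the fit without the mouse term both changes remained at a similar size with 1 mouse left out. Both calls of that fit were lost without mouse 2 (edgeR adjusted p = 0.26 in subclone 2 and 0.1245 in subclone 13) and without mouse 3 (0.221 and 0.132). With only the groups compared in that fit, the subclone 2 call was lost as well (0.176). The fit with the mouse term was not run with a mouse left out.

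The lung level of WWC1 lay between the other 2 organs. Against tumour the lung change was -0.51 ± 0.39 in subclone 2 and -1.17 ± 0.39 in subclone 13, neither called (adjusted p = 0.779 and 0.307). Lung exceeded liver by 2.30 ± 0.41 in subclone 2, with an adjusted p of 0.0581 without and 0.00442 with the mouse term. In subclone 13 the difference was 1.88 ± 0.41, with adjusted p of 0.251 and 0.0433. The groups did not overlap in either subclone.

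Some sums of marker genes also differed between the organs, not always in the order of WWC1. The hepatocyte sum was 30.5 to 60.0 CPM in subclone 2 liver, 60.1 to 72.5 in tumour and 32.5 to 93.8 in lung. In subclone 13 it was 171.5 to 220.9, 141.3 to 242 and 94.8 to 109.9 CPM. The summed CPM of 5 endothelial markers, led by PECAM1, was 28.7 to 33.6 in subclone 2 liver against 15.4 to 18.03 in its tumours, and 18.3 to 47.8 against 17.6 to 25.6 in subclone 13. In lung it was 14.75 to 17.33 and 12.02 to 17.69 in subclones 2 and 13. The sum of 7 leukocyte markers was 4.02 to 15.3 CPM in subclone 2 liver against 0.372 to 2.74 in tumour, and 8.47 to 13.0 against 2.72 to 3.54 in subclone 13. It was above tumour in lung too, at 3.77 to 6.88 and 5.35 to 11.93 CPM. The sum of 7 fibroblast or smooth muscle markers was 22.6 to 43.4 CPM in subclone 2 liver against 63.6 to 142 in tumour, and 37.4 to 90.1 against 67.1 to 162 in subclone 13. Its lung values were 32.65 to 104.1 and 44.24 to 73.68 CPM. The sum of 6 luminal markers, which includes KRT19, was 1260 to 2338 CPM in subclone 2 liver against 644 to 1261 in tumour, and 1212 to 2020 against 524 to 970 in subclone 13. In lung it was 1057 to 2146 and 894.9 to 1416 CPM, overlapping liver in both subclones. Among the endothelial and leukocyte markers CDH5 (1.56 CPM at most), VWF (0.741) and PTPRC (0.889) were near 0 in all 18 samples. Others were present: PECAM1 was at 8.31 to 42.4 CPM, and KDR reached 4.51, CD14 13.95 and LYZ 3.998 CPM. These single genes were named after their values were seen. The part of the marker sums and of these genes in the WWC1 result was not tested. The 3 libraries made for subclone 13 of mouse 1, each from another sequencing run, gave 0.930, 1.89 and 1.85 CPM of WWC1 in liver and 17.6 to 21.4 CPM in tumour. Tumour exceeded liver within each of the 3 runs. These library levels were scaled over the 24 single libraries, so they are compared with one another and not with the summed samples.

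**Figure D3:**
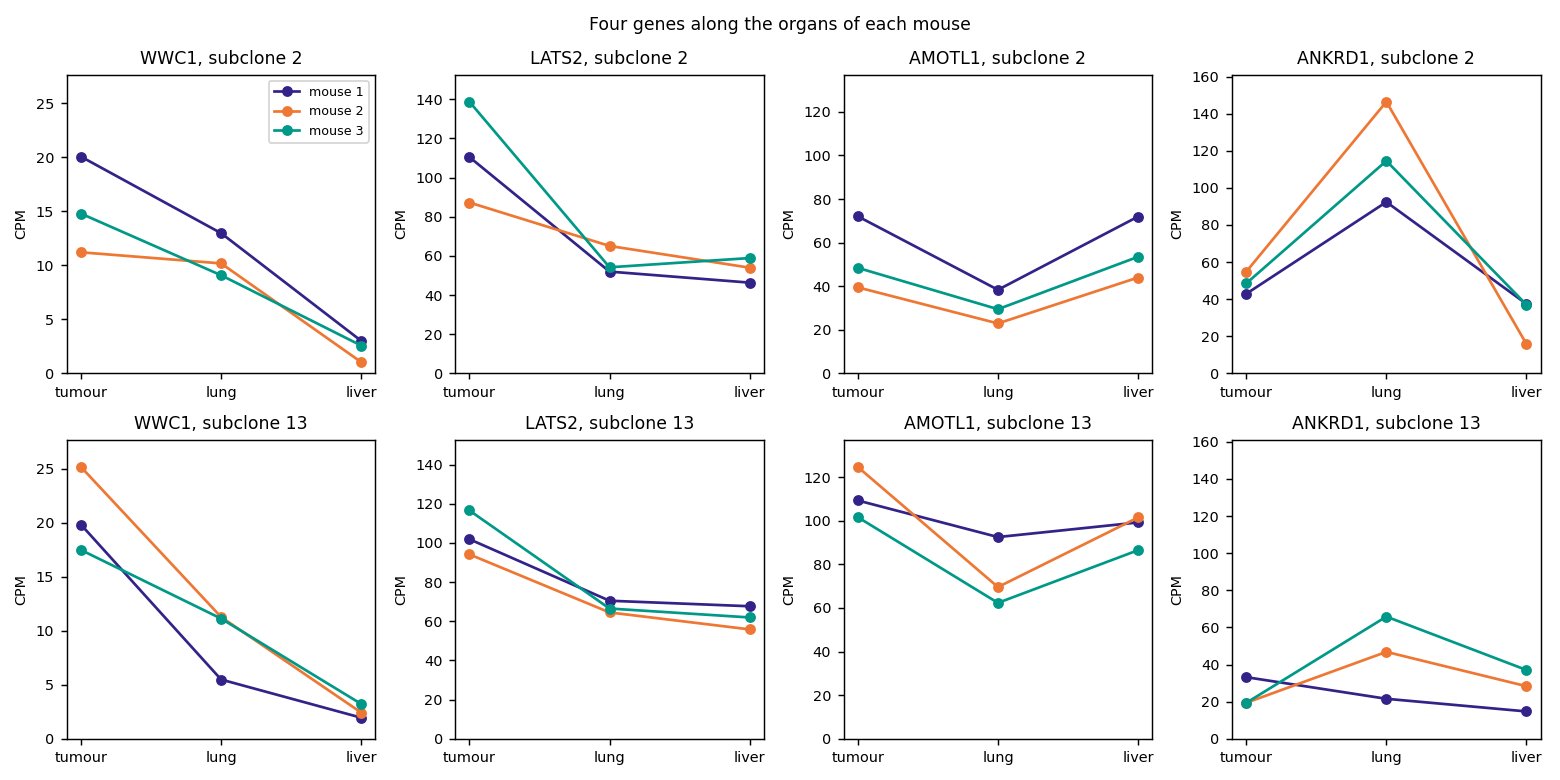
CPM (linear axis from 0) of WWC1, LATS2, AMOTL1 and ANKRD1 in tumour, lung and liver of mice 1, 2 and 3, subclone 2 above and subclone 13 below, with 1 line a mouse. WWC1 runs downward from tumour to liver in every mouse, and LATS2 is highest in the tumour of every mouse.

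LATS2, the kinase that is also a YAP target, was higher in primary tumours than in either metastasis. In subclone 2 it was at 110.5, 87.3 and 139 CPM in the tumours, 52.0, 65.1 and 54.2 CPM in the lung and 46.4, 54.0 and 58.9 CPM in the liver. In subclone 13 it was at 102, 94.1 and 117 CPM in the tumours, 70.5, 64.5 and 66.5 CPM in the lung and 67.6, 55.8 and 61.9 CPM in the liver. Every tumour sample was above every metastasis sample of its subclone, and the lung and liver values overlapped.

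In subclone 2 LATS2 fell by 0.97 ± 0.20 in the lung (1.96-fold, edgeR adjusted p = 0.0379; 0.00571 with the mouse term) and by 1.08 ± 0.20 in the liver (2.11-fold, adjusted p = 0.0243; 0.00262). In subclone 13 the changes were -0.63 ± 0.20 in the lung, not called (adjusted p = 0.26), and -0.75 ± 0.20 in the liver, called with the mouse term alone (0.166 without it and 0.0317 with it). The subclones differed in these changes by 0.34 ± 0.28 for the lung and 0.33 ± 0.28 for the liver, neither called (adjusted p = 1 for both). The following alternatives were fitted without the mouse term. Without mouse 1 the subclone 2 changes were -0.94 (edgeR adjusted p = 0.14) and -0.99 (0.126), so both calls of that fit were lost there. They were lost without mouse 2 (0.394 and 0.358) or mouse 3 (0.587 and 0.437) too. With only the groups compared they were also lost (0.209 and 0.4345), and the lung call was lost without the low-count filter (0.107).

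LATS1, the related kinase, showed no such pattern. Its levels were 29.996 to 52.1 CPM in subclone 2 tumours, 35.1 to 42.3 CPM in lung and 21.3 to 57.1 CPM in liver. In subclone 13 they were 25.9 to 51.6, 30.8 to 37.7 and 20.9 to 34.5 CPM. The groups overlapped in every organ pair, and the fitted organ differences lay between -0.38 and 0.27 with an SE of 0.33, none of them called in either fit.

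AMOTL1, an angiomotin relative that binds YAP at tight junctions, had its lowest mean in the lung metastases of each subclone and higher values in subclone 13. Subclone 2 had 72.1, 39.5 and 48.5 CPM in tumour, 38.4, 22.9 and 29.5 CPM in lung and 72.0, 44.0 and 53.5 CPM in liver. Subclone 13 had 109, 125 and 102 CPM in tumour, 92.5, 69.6 and 62.3 CPM in lung and 99.2, 101.5 and 86.5 CPM in liver. Every sample of subclone 13 was above every sample of subclone 2 from the same organ.

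Subclone 13 exceeded subclone 2 in AMOTL1 by 1.07 ± 0.26 in tumour, 1.31 ± 0.27 in lung and 0.76 ± 0.26 in liver. Without the mouse term none of these was called (edgeR adjusted p = 0.244, 0.05235 and 0.369), and with it all 3 were (0.01015, 0.00182 and 0.0451). The background of all genes called was 0.109%, 0.184% and 0.247% without that term and 0.505%, 1.54% and 1.50% with it, and AMOTL1 alone of the 10 genes was called in any organ, with that term. DESeq2 called it in tumour (adjusted p = 0.019) and lung (0.000374). Without mouse 1 the edgeR fit without the mouse term called it in tumour (adjusted p = 0.0216) and in lung (0.02905), and without mouse 2 or mouse 3 in neither. Unadjusted p under 0.05 without the mouse term was reached by 3 of the 10 genes in tumour, 5 in lung and 2 in liver. Among all 17418 genes it was reached by 759, 1225 and 1260.

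Within subclone 2 AMOTL1 was 0.82 ± 0.26 lower in lung than in tumour (adjusted p = 0.247, and 0.0281 with the mouse term) and 0.90 ± 0.26 lower in lung than in liver (0.264 and 0.0182), in 3 of 3 mice each. In subclone 13 the lung was 0.58 ± 0.26 lower than the tumour, in 3 of 3 mice, and not called in either fit (0.591 and 0.107). Against liver the subclone 13 lung differed by -0.35 ± 0.26, with overlapping groups and no call (1 and 0.50 with the mouse term). AMOTL1 shares 4.94% of its exonic bases with an antisense gene, and the library kit did not keep the strand.

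AMOTL2, a feedback target of YAP, had its lowest values in the liver. It was at 290.3, 213 and 301 CPM in subclone 2 tumours, 238, 268 and 191 CPM in lung and 179, 163 and 145 CPM in liver. In subclone 13 the values were 256, 276 and 255 CPM, 286, 214 and 163 CPM, and 189, 163.5 and 151 CPM. Liver and tumour did not overlap in either subclone, but the differences of -0.72 ± 0.23 and -0.65 ± 0.23 were not called without (adjusted p = 0.31 and 0.44) or with the mouse term (0.0549 and 0.0899). DESeq2 called the subclone 2 difference (0.0449).

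YAP1 and WWTR1, the coactivators that the pathway restrains, differed by at most 1.49-fold between organs of a subclone in the fits. In tumour, lung and liver YAP1 had 181 to 199, 139 to 202 and 184 to 287 CPM in subclone 2. Its range was 226 to 262, 178 to 311 and 243 to 311 CPM in subclone 13. WWTR1 had 224 to 255, 207 to 223 and 278 to 391 CPM in subclone 2, and 325 to 393, 244 to 409 and 351 to 448 CPM in subclone 13. In subclone 2 the WWTR1 values of liver lay above those of tumour and lung without overlap, by 0.41 ± 0.22 and 0.57 ± 0.22, and no difference between organs was called for either gene in either fit.

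Both coactivators had higher values in subclone 13 than in subclone 2. For WWTR1 the difference was 0.55 ± 0.22 in tumour, 0.59 ± 0.22 in lung and 0.30 ± 0.21 in liver, and for YAP1 it was 0.40 ± 0.23, 0.55 ± 0.23 and 0.23 ± 0.23. The subclones did not overlap for WWTR1 in tumour and lung or for YAP1 in tumour. None of these 6 differences was called (edgeR adjusted p from 0.486 to 1 without the mouse term and from 0.129 to 0.642 with it). Over the 18 samples the log2 CPM of YAP1 and WWTR1 had a Pearson r of 0.91, and AMOTL1 had r of 0.75 and 0.77 with them. ANKRD1 ran against both, with r of -0.82 and -0.84. These samples share mice, runs and groups, so the values describe the 18 samples and carry no test. YAP1 and WWTR1 share 9.97% and 9.45% of their exonic bases with antisense genes. So do CCN2 (8.34%) and LATS1 (4.72%), and AMOTL2 shares 3.12% with a pseudogene on its own strand.

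ANKRD1, a cardiac ankyrin repeat protein that is a common readout of YAP, was highest in lung metastases of subclone 2. Its tumour, lung and liver values there were 42.9, 54.8 and 48.5 CPM, 92.4, 146 and 115 CPM, and 37.5, 15.8 and 37.0 CPM. In subclone 13 they were 33.2, 19.4 and 19.3 CPM, 21.5, 46.8 and 65.8 CPM, and 14.7, 28.3 and 37.0 CPM. In subclone 2 the lung samples lay above all others without overlap, while in subclone 13 the organs overlapped, with mouse 1 lower in lung than in tumour and mice 2 and 3 higher.

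ANKRD1 exceeded the liver level in subclone 2 lung by 1.97 ± 0.42 (3.92-fold, edgeR adjusted p = 0.107, and 0.00925 with the mouse term) and the tumour level by 1.27 ± 0.41 (0.247 and 0.0697). DESeq2 called the first of these (0.00159), and so did edgeR without mouse 1 and without the mouse term (2.28, adjusted p = 0.01055). Without the low-count filter edgeR called both, the difference from liver (1.95, 8.525e-07) and that from tumour (1.25, 0.0139). In subclone 13 lung differed from liver by 0.75 ± 0.41 and from tumour by 0.89 ± 0.41, neither called in either fit (adjusted p from 0.3425 to 1). Without mouse 1 the subclone 13 lung difference from tumour was 1.55 and called in the edgeR fit without the mouse term (0.0497). The lung against liver difference differed by -1.23 ± 0.57 between the subclones (13 minus 2), which was not called (adjusted p = 1, unadjusted p = 0.0469). Between the subclones ANKRD1 differed by -1.02 ± 0.41 in tumour and -1.40 ± 0.41 in lung (13 minus 2), without overlap and not called in either fit (adjusted p = 1 and 0.281, and 0.385 and 0.0550 with the mouse term). Without the low-count filter the lung difference between the subclones was called (-1.40, 0.00259).

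CCN1 and CCN2, matricellular proteins that are direct YAP and TAZ targets, were called in no comparison of either fit. CCN1 had 1678, 1116 and 2221 CPM in subclone 2 tumours, 2252, 2073 and 1625 CPM in lung and 2767, 1211 and 1564 CPM in liver. In subclone 13 it had 1458, 1089 and 1364.5 CPM in tumour, 1057, 832 and 1162 CPM in lung and 1436, 729 and 590.0 CPM in liver. All organ pairs overlapped, and the fitted differences lay between -0.51 and 0.25 with an SE of 0.35.

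CCN2 had 845, 361 and 1357 CPM in subclone 2 tumours, 1086, 533 and 496 CPM in lung and 1190.5, 337 and 782 CPM in liver. In subclone 13 it had 1018, 684 and 1183 CPM in tumour, 1071, 532 and 816 CPM in lung and 738, 389 and 441 CPM in liver. Mouse 2 was low in every group except subclone 2 lung, where mouse 3 was lower. The fitted organ differences of CCN2 lay between -0.88 and 0.63 with an SE of 0.48, and the groups overlapped.

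Between the subclones CCN1 was at lower values in subclone 13 in all 3 organs and all 3 mice. The difference was -0.36 ± 0.35 in tumour, -0.96 ± 0.36 in lung, where the groups did not overlap, and -1.01 ± 0.36 in liver. None was called (edgeR adjusted p = 1, 0.496 and 0.393, and 0.784, 0.075 and 0.0639 with the mouse term). For CCN2 the differences were 0.17 ± 0.48, 0.19 ± 0.48 and -0.56 ± 0.48, with no call and with overlap in all 3 organs. Over the 18 samples CCN1 and CCN2 had a Pearson r of 0.59. CCN1 and CCN2 are also known to respond to serum and stress within minutes, as immediate early genes do. The summed level of 17 such genes was 3869 to 9659 CPM in subclone 2 tumours, 9970 to 17830 in lung and 6544 to 10800 in liver, and 5589 to 9309, 9723 to 21410 and 5674 to 9868 CPM in subclone 13. Their part in the levels of CCN1 and CCN2 was not tested.

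No organ difference of the 10 genes was shown to differ between the subclones. The test of subclone 13 minus subclone 2 called 0 of the 10 for lung against tumour (0% of 17418 genes called without the mouse term and 0% with it), 0 for liver against tumour (0% and 0.00574%) and 0 for lung against liver (0% and 0%). In edgeR 0, 0 and 1 of the 10 had an unadjusted p under 0.05 without that term, the 1 being ANKRD1, and DESeq2 called 0 in all 3. Of all 17418 genes 138, 297 and 345 had an unadjusted edgeR p under 0.05 there.

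In the retransplantation experiment WWC1 did not separate lung from liver. Its liver samples had 11.9, 13.8 and 5.30 CPM in mice 4, 5 and 6 and its lung samples 13.7, 16.1 and 5.004 CPM. The organs overlapped, with mouse 6 low in both, and the difference was 0.17 ± 0.48 (edgeR adjusted p = 0.917, and 0.807 with the mouse term). Its difference from the first experiment was -2.11 ± 0.62, from 2.30 in the first to 0.17 in the second, with an adjusted p of 0.604 and an unadjusted p of 0.00251. With the mouse term the adjusted p was 0.0919, so the difference between the experiments was not called in either fit.

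ANKRD1 was at 65.9, 121 and 39.0 CPM in the retransplanted liver samples and at 95.6, 106 and 23.7 CPM in the lung samples, a difference of 0.00 ± 0.56. CCN1 was at 2822, 1345 and 3099 CPM in liver and at 3669, 4243 and 4846 CPM in lung. The lung samples of all 3 mice exceeded every liver sample for CCN1. CCN2 was at 1561, 435 and 1902 CPM in liver and 1875, 2198.5 and 2798 CPM in lung. AMOTL2 was at 154, 145 and 184.5 CPM in liver and 252, 265 and 277 CPM in lung. For AMOTL2 the lung values also lay above the liver values without overlap, and for CCN2 they were higher in 3 of 3 mice with overlap. The differences of 0.81 ± 0.33, 0.82 ± 0.48 and 0.72 ± 0.17 for CCN1, CCN2 and AMOTL2 were not called by edgeR (adjusted p = 0.377, 0.519 and 0.189, and 0.213, 0.267 and 0.115 with the mouse term).

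In all, 0 of the 10 genes were called between the retransplanted lung and liver samples in edgeR, without the mouse term (0% of 17549 genes called) or with it (0.479%). Without it 2 of the 10 had an unadjusted p under 0.05, beside 2198 of all 17549 genes. DESeq2 called 1, AMOTL2 (0.71, adjusted p = 0.0416). The remaining genes had the following ranges in liver and lung: LATS1 31.7 to 40.7 and 37.3 to 41.7 CPM, LATS2 53.2 to 76.2 and 70.8 to 76.1, AMOTL1 40.6 to 45.1 and 45.1 to 55.6, YAP1 128 to 159 and 166 to 177, and WWTR1 203.5 to 317 and 188 to 203. Against the first experiment 0 of the 10 lung against liver differences were called without (0.00507% of 19721 genes called) or with the mouse term (0.0710%), and DESeq2 called 0. Unadjusted p under 0.05 without that term was reached by 4, namely AMOTL1 (1.19 ± 0.32), WWC1, ANKRD1 (-1.95 ± 0.69) and YAP1 (0.72 ± 0.30). Among all 19721 genes it was reached by 1226. The summed level of the 17 immediate early genes was 18310 to 23640 CPM in these liver samples and 19410 to 28090 CPM in the lung samples, and mitochondrially encoded genes held 5.62 to 7.01% and 5.17 to 9.90% of counts.

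The other genes of the pathway were followed in lists. Of 26 further YAP/TAZ-responsive genes, all tested, 1 was called in lung against tumour in each subclone, CCDC80. It was lower by 1.84 ± 0.34 in subclone 2 (edgeR adjusted p = 0.017) and by 2.14 ± 0.34 in subclone 13 (0.00691). In liver against tumour EDN1, the endothelin 1 precursor, fell in both, with changes of -2.32 ± 0.43 (0.0232) and -2.85 ± 0.44 (0.0054), and IGFBP3, which binds insulin-like growth factors, fell in subclone 13 by 1.78 ± 0.34 (0.02325). None of the 26 was called higher in these 4 comparisons, in which calls over all genes also leaned lower. Called or not, 9 and 9 of the 26 had a higher fitted level in lung and 7 and 8 in liver, in subclones 2 and 13. Of all 17418 genes 44 and 47 were called lower and 32 and 26 higher in lung, in subclones 2 and 13. In liver 35 and 51 were called lower and 15 and 16 higher. The median change of the 26 was -0.26 and -0.35 in lung and -0.43 and -0.18 in liver, in subclones 2 and 13. For all genes tested it was 0.05, 0.03, 0.05 and 0.02. With the mouse term 7 and 6 of the 26 were called lower in lung and 6 and 6 in liver, again with none called higher. In that fit 3.05% and 2.89% of all genes were called in lung and 1.68% and 1.83% in liver. Those in lung were 318 and 370 lower beside 214 and 133 higher. Those in liver were 206 and 243 lower beside 86 and 75 higher.

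EDN1 had the largest falls against tumour among those called in this list without the mouse term. It was at 119, 94.5 and 74.4 CPM in subclone 2 tumours, 71.1, 63.9 and 51.3 CPM in lung and 32.3, 7.39 and 18.2 CPM in liver. In subclone 13 it was at 140.5, 62.4 and 55.5 CPM, 29.03, 30.1 and 41.7 CPM, and 13.0, 10.5 and 12.3 CPM. The 3 organs did not overlap in either subclone, in the same order as WWC1. F3, the tissue factor gene, was lower in subclone 13 than in subclone 2 lung by 1.74 ± 0.29 (adjusted p = 0.01325), at 32.3 to 56.4 against 113 to 179 CPM.

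Among 22 tested upstream scaffolds and junction proteins (23 listed), FRMD6, an adaptor that helps to activate the kinases, fell by 1.43 ± 0.27 in subclone 2 lung against tumour (edgeR adjusted p = 0.0213), from 361, 443 and 337 to 172, 150.2 and 100.2 CPM. The list's medians were -0.34 and -0.32 in lung and -0.23 and -0.16 in liver against tumour, for subclones 2 and 13. With the mouse term 4 and 3 were called lower in lung and 3 and 0 in liver. Of all genes 3.05% and 2.89% were called with that term in lung and 1.68% and 1.83% in liver. RASSF2, which binds the MST kinases, was higher in subclone 13 than in subclone 2, by 2.49 ± 0.48 in lung (0.0405) and 3.49 ± 0.50 in liver (0.00749), and also in tumour with the mouse term (2.41 ± 0.37, 0.00297). Its level was 5.76 to 17.965 CPM in the 9 samples of subclone 13 and 0.834 to 4.09 CPM in those of subclone 2.

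Of 16 tested kinases and adaptors (17 listed, such as the MST kinases, SAV1 and MOB1), none was called without the mouse term in any of the 14 comparisons, and their medians lay between -0.26 and 0.28. With that term MAP4K4, a kinase that can act on LATS, was lower in lung than in liver of subclone 2 by 1.11 ± 0.20 (edgeR adjusted p = 0.00572), STK38L (NDR2) lower in subclone 2 lung than tumour (2.004-fold, -1.003 ± 0.27) (0.04575), and TAOK2 lower in subclone 13 liver than tumour by 0.85 ± 0.21 (0.0442). Of 12 subunits of STRIPAK, the phosphatase complex that opposes the MST kinases, 1 was called, STRIP2, in subclone 13 liver against tumour with the mouse term (-1.04 ± 0.25, 0.0337). Of 6 tested TEAD and VGLL genes (8 listed), VGLL3, a TEAD cofactor, was lower with the mouse term in subclone 2 liver (-1.80 ± 0.40, 0.0214) and subclone 13 lung (-1.59 ± 0.40, 0.0361), both against tumour. TEAD1 was at 158 to 435 CPM in the first experiment, and no TEAD gene was called there in either fit.

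TEAD2 was the 1 gene of these lists whose lung against liver difference was called between the experiments, with the mouse term (1.81 ± 0.33, edgeR adjusted p = 0.0409). It was at 32.1 to 37.1 CPM in lung and 28.9 to 48.9 CPM in liver of subclone 2 in the first experiment, and at 18.5 to 30.2 and 5.71 to 8.76 CPM after retransplantation. The other CCN genes were low: in the first experiment CCN3 was at 7.49 to 49.7 CPM, CCN4 at 0.321 to 26.3 CPM, and CCN5 and CCN6 at or below 2.02 CPM, and no CCN gene was called in any comparison of either fit. For comparison, of the 17 immediate early genes 3 were called higher in subclone 2 lung against tumour (DUSP1, IER2 and ZFP36) and 2 in subclone 13 lung (DUSP1 and ZFP36). DUSP1 alone was called higher in the liver of each subclone, and none was called lower in these comparisons. DUSP1, a phosphatase that ends MAP kinase signals, rose by 2.50 ± 0.45 (adjusted p = 0.0159) and 2.21 ± 0.44 (0.0352) in lung and by 2.30 ± 0.45 (0.0309) and 2.22 ± 0.44 (0.0315) in liver. Of 13 mitochondrially encoded genes 8 were called higher in the lung of each subclone against tumour and 0 in the liver. Of all genes 0.436% and 0.419% were called in lung and 0.287% and 0.385% in liver, in subclones 2 and 13.

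**Figure D4:**
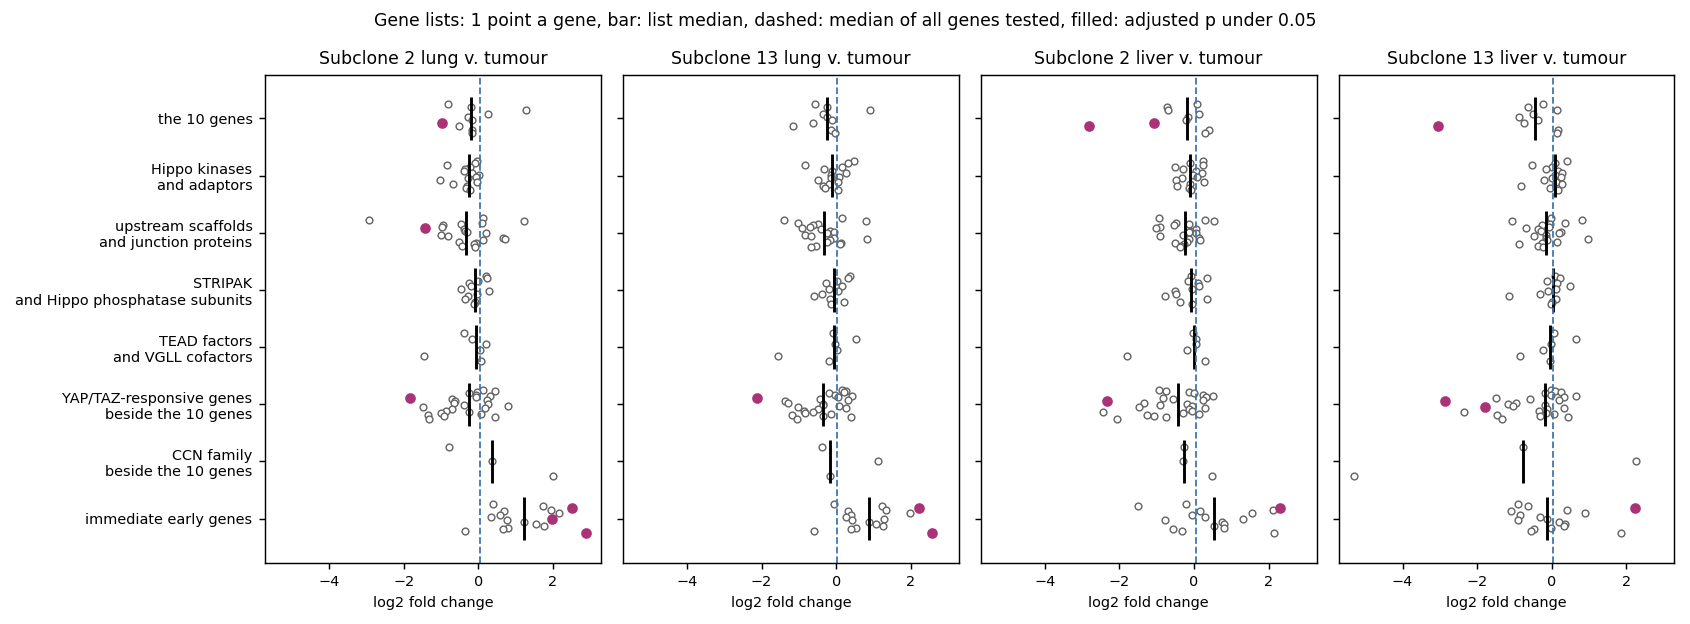
log2 fold change (no mouse term) of the genes of 8 lists in lung and liver against tumour; each point is 1 gene, the bar is the list's median, the dashed line the median of all genes tested, and filled points are called. PTPN14 and AJUBA stand in both the scaffold and the YAP/TAZ-responsive list. The YAP/TAZ-responsive genes have medians of -0.18 to -0.43, with filled points at lower values alone.

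The genes whose pattern over the 18 samples was most like that of WWC1, among 11023 with a mean of at least 5 CPM, were BCOR (Pearson r of log2 CPM 0.93), EDN1 (0.91), RELB (0.88), STX11 (0.86) and MFSD2A (0.86). For CCN1 they were NEU1 (0.93), DDA1 (0.92), DDX49 (0.92), COLGALT1 (0.91) and HSPB1 (0.91), and for CCN2 they were BTG1 (0.93), TMEM158 (0.90), CMIP (0.90), DPM2 (0.89) and PITHD1 (0.88). Neither list for the CCN genes held a gene of the 10. Each list holds only the 5 highest of 11023 genes, so no conclusion about CCN1 and CCN2 is drawn from this. Between CCN1 and CCN2 r was 0.59. Among the 10, WWC1 was most like AMOTL2 (r = 0.75) and LATS2 (0.67), and AMOTL2 had r of 0.69 with LATS2. Both had liver values below tumour without overlap in each subclone, although LATS2 was as low in lung. ANKRD1, lowest in liver in subclone 2, had r of 0.35 with WWC1. These r values share mice, runs and groups and carry no test.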

How the data were processed

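Per the labels, human RNA from the Qiagen miRNeasy micro kit was made into libraries with Illumina's TruSeq RNA kit (v2), which does not mark strand. The authors deposited raw counts per Ensembl gene, and bcl2fastq 2.15.0.4, cutadapt, STAR, featureCounts and GRCh38 are named in the submitters' processing notes. The sequencing run of each library was taken from the authors' deposited sample sheet. The 3 libraries of each organ of subclone 13 from mouse 1 were summed, which left 24 samples of 30 libraries. Each group was 3 mice.

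Counts were scaled by TMM, genes were filtered by group with filterByExpr, and 14 comparisons were tested with edgeR 4.0.16 (R 4.3.3) quasi-likelihood tests, all groups in 1 fit, two-sided, with Benjamini-Hochberg adjustment over all genes tested and a threshold of 0.05. The script was tested on simulated data that had no mouse effect, and only in the fit without the mouse term. Log2 CPM used a prior of 0.5. Mouse numbers pair the samples because they name the animal, per the labels: with group means removed, the 45 pairs of samples from 1 mouse correlated with a median of 0.359 (lowest 0.152) against -0.249 in 90 other pairs, and 0.304 in 3 pairs of the second experiment. The alternatives were a mouse term, DESeq2 1.42.0, RLE size factors, no low-count filter, only the groups compared, 1 library in place of 3, and leaving out each sample or mouse. All but the first were fitted without a mouse term. The total counts limit the precision of low genes such as WWC1.

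The genes and lists were chosen with earlier results of these data known. All 10 genes were described; list genes were named if called without the mouse term, or, if a list had none, up to 3 with the largest change among those called with it. The genes most like WWC1, CCN1 and CCN2 are the 5 with the highest correlation. Coordinates are from GENCODE v29 and promoters from RefSeq (GRCh38.p14).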

Additional observations from a re-analysis of the deposited data

How the results depend on the processing

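The 13 fold changes of the 10 genes that were called without or with the mouse term kept their direction under every alternative run; other fold changes were not followed. The number of the 10 genes called moved as follows. With mouse as a replicate block it was 2 in place of 1 for subclone 2 lung against tumour, 3 in place of 0 for lung against liver, 2 in place of 1 for subclone 13 liver against tumour, 1 in place of 0 for its lung against liver, and 1 in place of 0 for subclone 13 against 2 in tumour, lung and liver; the block changed no other count. DESeq2 gave 2, 2 and 1 for subclone 2 lung against liver, subclone 13 liver against tumour and subclone 13 lung against liver, 3 in place of 2 for subclone 2 liver against tumour (AMOTL2 added), and 1 for subclone 13 against 2 in tumour, for that in lung and for the retransplanted lung against liver. Without a low-count filter the counts were 2 for subclone 2 lung against liver, 1 for subclone 13 lung against liver and 2 for subclone 13 against 2 in lung, where ANKRD1 joined AMOTL1, and in subclone 2 lung against tumour ANKRD1 was called in place of LATS2. For subclone 13 against 2 in lung RLE size factors and the single libraries of run 1 and run 3 gave 1. The run 3 library also gave 1 for subclone 2 lung against liver. With only the groups compared, both subclone 2 counts against tumour were 0, where 6 samples set the spread. Leaving out samples or mice gave 0 to 1 for subclone 2 lung against tumour, 0 to 2 for liver against tumour and 0 to 2 for lung against liver, 0 to 1 for subclone 13 lung and liver against tumour, and 0 to 1 for subclone 13 against 2 in tumour and in lung. Without mouse 2 or mouse 3 none of the 10 was called in any comparison of the first experiment, in fits that had no mouse term. WWC1 in liver against tumour was called in 26 of 29 alternatives in subclone 2 (-3.04 to -2.46) and 27 of 29 in subclone 13 (-3.39 to -2.88), and LATS2 in subclone 2 in 13 of 29 for lung and 20 of 29 for liver. The cause of these changes was not tested. WWC1 rests on 40 to 149 reads per liver sample.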
